A study of Mus musculus with 4 samples.

Results

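The sites described here were intergenic regions of open chromatin that carried a peak in both libraries of freshly cultured mouse chondrocytes (passage 0, P0) and in neither library of chondrocytes expanded to passage 8 (P8). The members were chosen by that pattern of peaks from the peak lists of the 4 libraries: peaks that shared at least 1 bp were merged into sites, and sites on chromosomes 1 to 19 and X were kept that lay outside protein-coding genes, more than 1 kb and at most 250 kb from the nearest gene end. There were 10693 such sites among 61080 intergenic sites, which is 17.5%, and among 170325 merged sites in all. The opposite pattern, peaks in both P8 libraries and in no P0 library, was held by 1363 intergenic sites, or 2.23%, and 17507 intergenic sites, or 28.7%, had a peak in all 4 libraries. The passage contrast is what chose the sites, so their absence from P8 is no finding, and no test of it was run. With 2 libraries a passage, an exact test could not go below p = 0.333.

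Chondrocytes were isolated from knee cartilage, the strain being C57BL/6 and the age 0 to 4 days after birth, and no genotype or treatment set the groups apart. P0 cells had spent less than a day in culture, and P8 cells had been passaged each time their number had doubled. Each passage was profiled with 2 libraries of ATAC-seq, an assay in which a transposase cuts and tags accessible DNA, and they are called A and B here. The labels do not say whether the libraries of a passage came from separate animals or cultures, so their spread may be technical. Peaks lay within 1 kb of an end of all 9 chondrocyte marker genes in both P0 libraries and of 8 of the 9 in both P8 libraries. The exception was Matn1, which encodes the cartilage protein matrilin-1. Of 4 fibroblast marker genes, peaks were found at all 4 in P0 A, P0 B and P8 A and at 3 in P8 B.

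Open chromatin between genes holds many enhancers, stretches of DNA where transcription factors bind and from which they act on genes that may lie far away. In chondrocytes SOX9, with SOX5 and SOX6, binds many such elements near the genes of the cartilage matrix, such as those of type II collagen and aggrecan. Chondrocytes grown as a monolayer lose the cartilage matrix programme and take on features of fibroblasts, a process called dedifferentiation. The gene nearest to a site is given below as a position only, because a site may act on another gene.

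To show what such sites are made of, sequences are printed for members at which RefSeq (GRCm38) lists the start of a transcript. A window from 250 bases before to 50 bases after each listed gene start overlapped 163 members. For 86 members, in 89 windows, at least 150 bp of the window lay inside the site. The windows below belong to long non-coding RNA genes, were picked after their values were seen because they lie beside genes with many members or are among the highest sites, and are cut to the stretch inside the member. Capitals mark AP-1 (TGANTCA), NFI (TTGGCA) or TEAD (GGAATG) letters on either strand.
Gm29933, nearest to Phospho1, chr11:95808555-95808854, minus strand: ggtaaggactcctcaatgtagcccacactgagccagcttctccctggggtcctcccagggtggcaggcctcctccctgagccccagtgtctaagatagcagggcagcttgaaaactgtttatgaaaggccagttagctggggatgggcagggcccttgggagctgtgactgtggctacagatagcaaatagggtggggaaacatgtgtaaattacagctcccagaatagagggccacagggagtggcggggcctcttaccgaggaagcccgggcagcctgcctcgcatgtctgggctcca
Gm30695, nearest to Setd4, chr16:93493310-93493523, minus strand: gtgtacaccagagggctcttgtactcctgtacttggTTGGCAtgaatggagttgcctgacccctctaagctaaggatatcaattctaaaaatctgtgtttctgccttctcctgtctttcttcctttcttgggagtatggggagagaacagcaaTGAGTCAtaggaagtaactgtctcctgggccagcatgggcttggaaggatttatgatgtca
Gm33448, nearest to Rybp, chr6:100180952-100181224, minus strand: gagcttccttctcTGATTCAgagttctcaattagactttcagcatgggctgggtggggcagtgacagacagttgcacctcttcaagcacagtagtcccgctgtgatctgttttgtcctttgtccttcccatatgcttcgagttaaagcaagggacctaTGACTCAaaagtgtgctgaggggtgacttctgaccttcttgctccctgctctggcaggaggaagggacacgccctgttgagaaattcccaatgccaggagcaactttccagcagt
Gm46091, nearest to Pou3f3, chr1:42684291-42684587, plus strand: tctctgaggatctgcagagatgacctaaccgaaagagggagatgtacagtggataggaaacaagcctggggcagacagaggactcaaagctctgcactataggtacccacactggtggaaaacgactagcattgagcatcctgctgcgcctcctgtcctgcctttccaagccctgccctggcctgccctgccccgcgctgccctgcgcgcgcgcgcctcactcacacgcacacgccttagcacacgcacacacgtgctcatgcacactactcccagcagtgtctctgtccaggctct
Gm34772, nearest to Smoc2, chr17:14252674-14252830, minus strand: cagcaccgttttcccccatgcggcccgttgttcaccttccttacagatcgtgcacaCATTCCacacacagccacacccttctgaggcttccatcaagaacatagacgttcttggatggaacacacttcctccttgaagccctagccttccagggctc

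The member at Gm29933 held 31 tags at its summit in P0 A and 22 in P0 B. Its fold enrichments over the local background were 12.04 and 9.43, and its printed stretch carried none of the 6 motifs searched. At Gm30695 the summit held 26 and 19 tags, and the printed stretch carried 1 AP-1 and 1 NFI match. At Gm33448 it held 19 and 21 tags, and the printed stretch carried 2 AP-1 matches. The member at Gm46091, with 28 and 21 tags, had no match in its printed stretch. That at Gm34772, with 19 and 18 tags, had 1 TEAD match. Letters of this kind are descriptions and say nothing of whether a factor was bound.

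Each site was counted once, with a match in any of its windows. The AP-1 letters stood in the windows of 13 of the 86 members, 15.1% (95% Wilson interval 9.05 to 24.2). For 451 intergenic sites open in all 4 libraries, picked in the same way, it was 15.5% (12.5 to 19.2). Over all 32817 windows of the table the share was 7.81%. TEAD letters stood in the windows of 30.2% (21.5 to 40.6) of the members. They stood in those of 20.8% (17.3 to 24.8) of the sites open in all 4, beside 14.7% over the table. SOX letters (ACAATGG) were in the windows of 5 members, 5.81% (2.51 to 12.9), against 1.996% (1.05 to 3.75) and 3.67%. NFI letters were in 23.3% against 19.1% and 14.1%. RUNX letters (TGTGGTT) were in 5.81% against 7.54% and 5.27%, and ETS letters (CCGGAAG) in 4.65% against 8.20% and 8.86%. The intervals of the 2 classes of site overlapped for each of the 6 motifs. Letters were searched over the full 300 bases of each window, and some matches, SOX matches among them, lay outside the site. The median GC content was 50.7% at P0 only sites, 53.7% at sites open in all 4 and 52.7% over the table. These windows cover 86 of the 10693 members, all at transcript starts, and the other members' sequence was not analysed here.

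A further member, 159 bp long at chr2:133564664-133564822, lay 1768 bp from Bmp2, the gene of a bone morphogenetic protein, and contained the microRNA gene Mir3090. It held 11 tags in P0 A and 10 in P0 B, close to the medians of all members. The 2 mature microRNAs encoded there are printed with the seed, bases 2 to 8, in capitals.
mmu-miR-3090-5p: gUCUGGGUggggccugagauc
mmu-miR-3090-3p: uCCCAGGUgacacccugacuca

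P0 only intergenic sites were weak and narrow. The pileup, the number of extended tags that cover the summit, had a median of 13 in P0 A (range 6 to 58) and of 11 in P0 B (range 6 to 56). The lowest pileup that was called in any of the 4 libraries was 6. Fold enrichment, the pileup over the local background with 1 added to each, had a median of 5.12 in P0 A and 5.03 in P0 B. Sites open in all 4 libraries had medians of 25 and 20 tags at P0, with fold enrichments of 8.28 and 7.78, and of 14 and 16 tags at P8. P8 only intergenic sites had medians of 10 tags in each P8 library. P0 only sites in gene bodies stood at a like level to the members, with medians of 14 and 12 tags and fold enrichments of 4.97 and 5.03. Their peaks had median lengths of 190 and 154 bp in P0 A and B, against 191 and 152 bp for peaks of the members. At gene ends the medians were 15 and 13 tags, with fold enrichments of 4.52 and 4.58. The members had a median width of 219 bp (74 to 1233), and sites open in all 4 a median of 400 bp. A lower signal in such a bulk assay can come from fewer cells in which a site is open or from less opening in each cell, and these cannot be told apart.

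**Figure D1:**
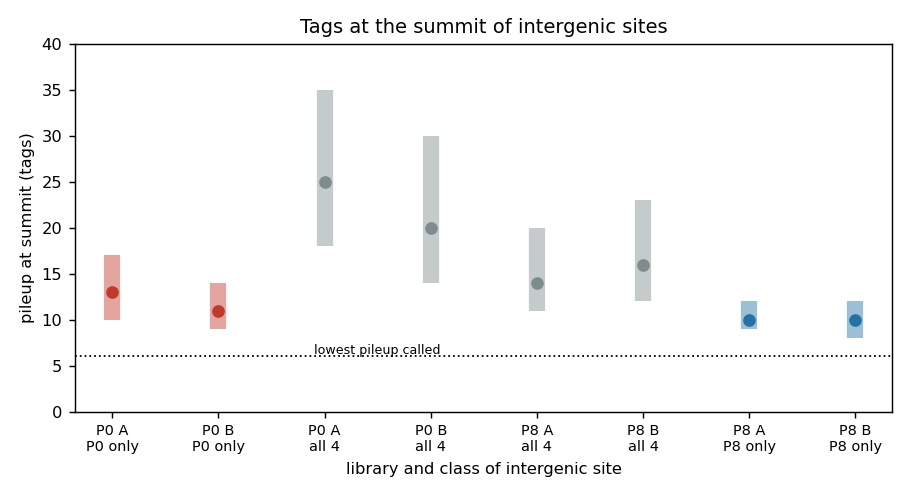
Pileup in tags (y axis, from 0) for 3 classes of intergenic site in each library in which they have peaks (x axis); points are medians, bars run from the lower to the upper quartile over sites, and the dotted line is the lowest pileup called, 6. The medians of P0 only sites, 13 and 11, lay below those of sites open in all 4 libraries, 25 and 20 in the same P0 libraries.

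Peaks of both P0 libraries overlap at each member by the rule, which bounds how far apart their summits can lie. Summits in A and B were a median of 29 bp apart, and 68.4% were within 50 bp, against 20 bp and 74.0% for sites open in all 4 libraries. The log2 ratio of fold enrichment between A and B had an SD of 0.32 over the 10693 sites, and 99.7% of the sites differed by less than 2-fold. Fold enrichment in A and B correlated across members on the log2 scale with Pearson's r = 0.69 and Spearman's rho = 0.63, a description over sites that share libraries and were all cut off below by the peak call. The same values over 17507 sites open in all 4 were 0.87 and 0.87.

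How often a site of both P0 libraries had no P8 peak fell with its P0 level. Of 33847 intergenic sites with a peak in both P0 libraries, 10693, or 31.6%, had none at P8. By the lower of the 2 P0 fold enrichments, the share was 59.4% under 4, 52.2% from 4 to 5, 37.0% from 5 to 6 and 20.05% from 6 to 8. It was 8.60% from 8 to 10, 4.53% from 10 to 12, 1.99% from 12 to 15 and 0.545%, 2 of 367 sites, from 15 up. Strong sites, defined after the values were seen as those with a fold enrichment of at least 8 in both P0 libraries, made up 514 of the 10693 members (4.81%) and had no P8 peak in 5.91% of 8691 cases. In contrast, 6406 members, 59.9%, were under 5 in at least 1 P0 library.

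**Figure D2:**
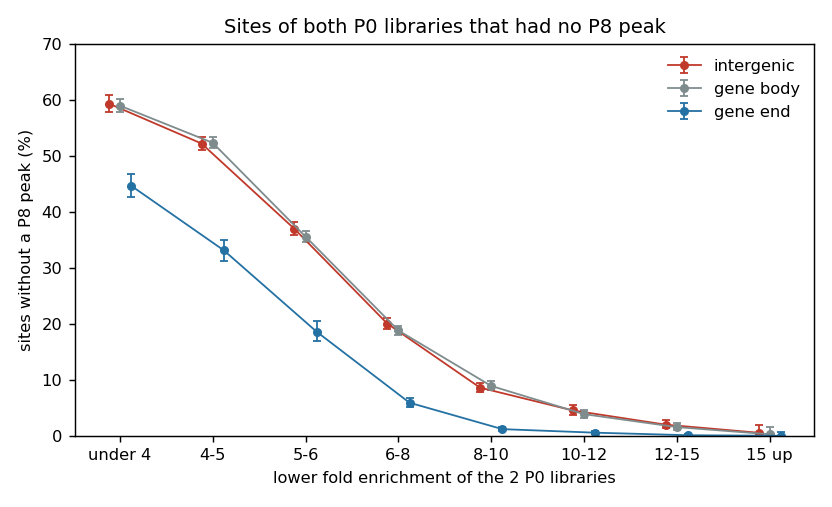
Share of sites with a peak in both P0 libraries that had no P8 peak (y axis, percent, from 0) by the lower P0 fold enrichment (x axis, in bins), for intergenic sites, gene bodies and gene ends; bars are 95% Wilson intervals, which cover counting error only. The share falls from 59.4% to 0.545% for intergenic sites, gene bodies follow them, and gene ends lie lower in each bin.

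Sites at gene ends differed more from intergenic ones by fold enrichment than by tags, except at the highest tag levels. At equal fold enrichment, sites within 1 kb of a gene end had no P8 peak less often than intergenic sites: 44.7% under 4, 18.6% from 5 to 6 and 1.19% from 8 to 10. Sites inside gene bodies were close to intergenic ones, with 32.6% without a P8 peak in all and 6.01% among strong sites. When sites were binned by the pileup divided by the lowest background of the library instead, which leaves the local background out, the shares under a ratio of 8 (the lower of the P0 libraries) were 61.5% for intergenic sites, 65.2% for gene bodies and 65.7% for gene ends. From 8 to 12 they were 40.2%, 42.6% and 40.5%, and from 12 to 16 they were 21.1%, 25.7% and 21.6%. From 16 to 24 they were 9.64%, 12.6% and 7.65%, and from 24 up, where gene ends again lay lower, 2.17%, 2.44% and 0.585%. P0 only sites numbered 14279 in gene bodies (18.7% of the sites there) and 2456 at gene ends (10.1% of 24346), and 29155 in all, 17.1% of all merged sites.

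Depth differed between the passages in the direction of the pattern. The lowest background corresponded to 194 and 162 tags per 10 kb in P0 A and B and to 140 and 134 in P8 A and B, and 48668, 37694, 26648 and 30198 intergenic sites had a peak in them. When the pileup and background of each P0 peak were scaled down to the lowest of these backgrounds, 10352 of the 10693 members (96.8%) would still have passed, in both P0 libraries, the lowest -log10 p called in P8 B, 3.32. At the lowest background a P8 peak needed 6 tags, and the members' P0 tags scaled to P8 depth had medians of 8.99 to 9.49. By library pair, 93.0% to 99.4% of members were at or over the 6 tags. The scaled values stand near the call, and a sampled count varies about them, so at this depth the lack of a P8 peak does not show that a site was closed. Of the intergenic sites with peaks in both P0 libraries, another 5647 had a peak in exactly 1 P8 library, with a median of 10 tags there.

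Members lay somewhat farther from genes than sites that stayed open. Their median distance from the nearest protein-coding gene end was 31290 bp, against 24832 bp for sites open in all 4 libraries, 32860 bp for P8 only sites and 28368.5 bp for all intergenic sites. More than 50 kb away were 37.5% of members and 31.1% of sites open in all 4. The strong members were farther still, at a median of 50026 bp, against 28024.5 bp for strong sites open in all 4. P0 only sites were 16.6% of the intergenic sites 1 to 10 kb from a gene end, 17.1% from 10 to 50 kb, 18.8% from 50 to 100 kb and 18.5% from 100 to 250 kb. Over the same bins the share open in all 4 libraries went from 31.0% to 30.2%, 27.0% and 23.7%. Of the members, 21.4% overlapped a gene that is not protein-coding, in most cases a long non-coding RNA gene (19.3%), against 24.3% of sites open in all 4 and 21.2% of all intergenic sites (18.8% for long non-coding RNA genes).

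By chromosome, P0 only sites made up 15.9% to 19.1% of the intergenic sites of the 19 autosomes (median 17.4%) and 17.0% of those of the X chromosome, 312 sites. The X chromosome thus lay inside the autosomal range for the members.

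Members occurred near each other and near sites that stayed open. The nearest other member was a median of 25479 bp away, and 4764 members, 44.6%, had another within 20 kb. A site open in all 4 libraries lay within 20 kb of 64.1% of members, and a site with a P8 peak within 1 kb of 15.2%. Sites open in all 4, which are more numerous, had another of their class within 20 kb in 63.3% of cases, and P8 only sites, which are fewer, in 14.8%. The intergenic sites open in all 4 that lay within 20 kb of a member had a median log2 ratio of P8 over P0 fold enrichment of -0.20 (quartiles -0.45 and 0.03), and those farther away of -0.21 (-0.46 and 0.05), a difference far smaller than the spread over sites.

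Linked at gaps of up to 20 kb, the members formed 7890 runs, of which 5929 were single sites and 179 held 4 or more. The longest run had 10 members over 36.4 kb at chr5:33681092-33717503, 7 nearest to Tacc3 and 3 nearest to Fgfr3, which encodes the fibroblast growth factor receptor that restrains growth plate chondrocytes. Its members held 10 to 41 tags in P0 A and 12 to 36 in P0 B, and their fold enrichments, at a raised local background, were 2.62 to 4.42 and 2.90 to 5.35. Among the 15 intergenic sites in its span, 4 were open in all 4 libraries. A run of 9 at chr17:46039067-46104805 was nearest to Mrps18a (5 sites) and Vegfa (4 sites), the gene of an angiogenic factor made by hypertrophic chondrocytes, with 8 to 26 tags in P0 A and 9 to 16 in P0 B. Another run of 9, at chr16:92215635-92286864, was nearest to Kcne2, a potassium channel subunit gene, with 8 to 23 tags in A and 8 to 19 in B. Its span also held 4 P8 only sites, whereas the Tacc3 and Vegfa runs held 0.

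Of 21631 protein-coding genes, 5348 (24.7%) were nearest to at least 1 member, and 1169 (5.4%) to at least 1 P8 only site. A gene with more intergenic sites about it has more chances to be nearest to a member, so gene lists are given as the share of their intergenic sites that were P0 only, to be read against 17.5% over all genes. The share was 25.3% for cartilage matrix genes (39 of 154 sites, at 14 of 22 genes), 20.8% for hypertrophic and osteogenic genes (20 of 96), 20.2% for growth plate signalling genes (61 of 302) and 18.9% for chondrogenic transcription factors (68 of 359). It was 16.3% for limb and skeletal position genes (45 of 276), 16.2% for proteases and inflammation genes (22 of 136), 13.2% for AP-1 and ATF genes (20 of 152) and 12.2% for fibroblast and contractile genes (30 of 246). With the 4 libraries brought to matched depth the cartilage matrix list had 25.7% and the fibroblast list 11.9%.

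**Figure D3:**
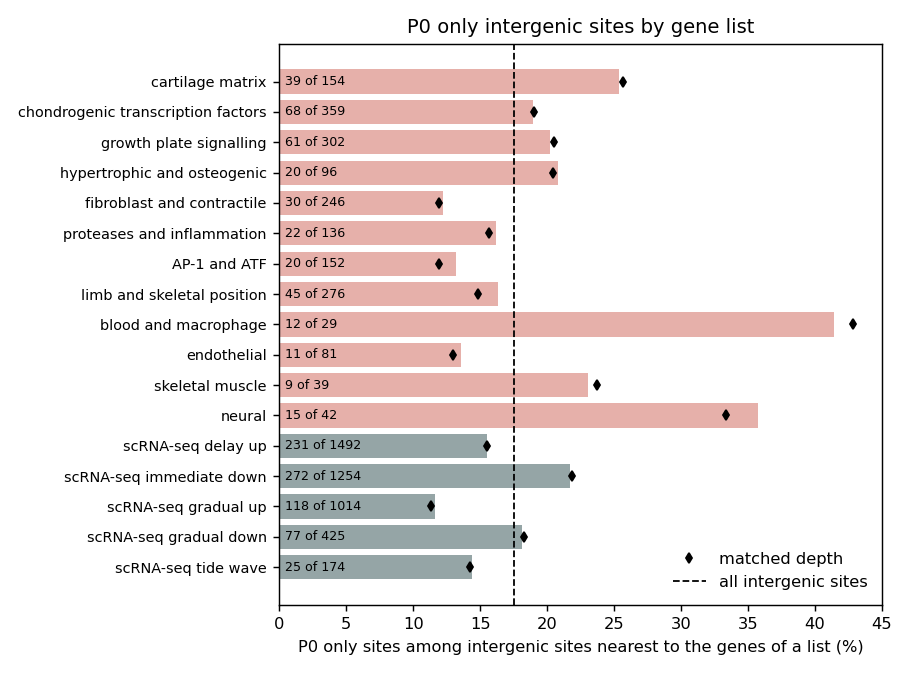
P0 only sites as a percentage of the intergenic sites nearest to the genes of each list (x axis, from 0), with the counts in the bars; the 5 grey bars are gene classes of the study's single-cell RNA-seq, diamonds are the values at matched depth and the dashed line is 17.5%, the share over all intergenic sites. The cartilage matrix bar, 25.3%, lies above the line, and the blood and macrophage bar, 41.4%, and the neural bar, 35.7%, are longer. The fibroblast and contractile bar, 12.2%, lies below the line, and the single-cell gradual up bar, 11.6%, is shorter.

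Within levels, the lists had few sites each. Among strong sites, 3 of 20 at cartilage matrix genes had no P8 peak, 15% (95% Wilson interval 5.24 to 36.0), 8 of 54 at growth plate signalling genes, 14.8% (7.70 to 26.6), 1 of 39 at fibroblast and contractile genes and 0 of 29 at AP-1 and ATF genes, beside 5.91% over all genes. From 5 to 8 in the lower fold enrichment, 16 of 33 sites of the cartilage matrix list, 48.5% (32.5 to 64.8), had no P8 peak, beside 28.1% over all genes, and 10 of 59 of the fibroblast list, 16.9%. Under 5, the cartilage matrix list had 47.6% (33.4 to 62.3), 20 of 42, beside 54.6%. The growth plate signalling list had 26.5% (17.4 to 38.0), 18 of 68, from 5 to 8. Under 5 it had 55.6% (43.3 to 67.2), 35 of 63. Its intervals held the share over all genes in these bins but not among strong sites. The intervals of the cartilage matrix list held the share over all genes among strong sites and under 5, but not from 5 to 8. Neighbouring sites are not independent, so these intervals are too narrow.

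Many members near cartilage matrix genes lay where tags were dense all round. A high local background, set after the values were seen as at least 3 times the lowest of the library in both P0 libraries, was found at 361 of 10693 members, 3.38%, and at 16 of the 39 members nearest to cartilage matrix genes, 41.0%. For comparison, it was found at 4.41% of members nearest to chondrogenic transcription factors, 6.56% of those at growth plate signalling genes and 9.002% of the intergenic sites open in all 4 libraries. A high local background means many tags spread over the surrounding window of up to 10 kb, and it lowers the fold enrichment of a given pileup. Counted by tags, 52 sites of the list had a pileup of at least 16 times the lowest background in both P0 libraries. Of these, 15, or 28.8%, had no P8 peak, beside 6.44% of such sites over all genes. Most of the 15 lay at a high local background, as at Col11a2. A call at such a background needs more tags than at the lowest one, so a high pileup there does not mean a site far above the call.

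**Figure D4:**
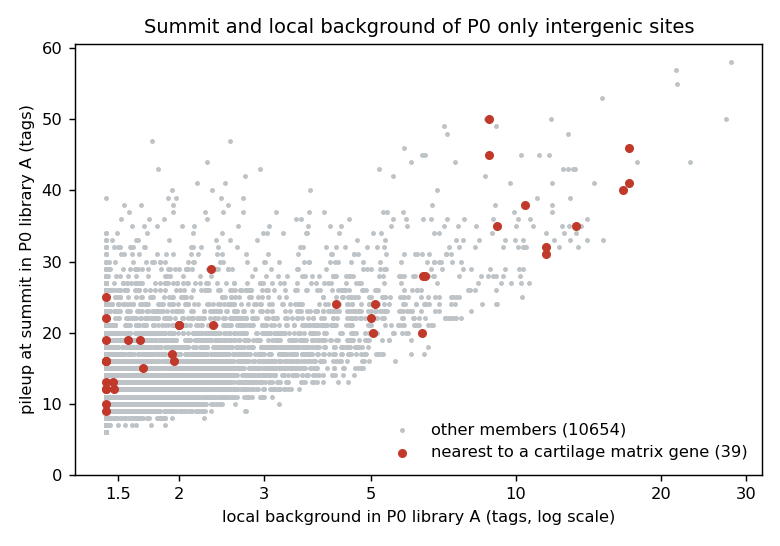
Pileup at the summit (y axis, tags, from 0) against local background (x axis, tags, log scale) in P0 library A for all 10693 members; each point is a site, and the 39 nearest to cartilage matrix genes are in red. Of the 39, 16 lay at a background at least 3 times the library's lowest, with 20 to 50 tags at the summit.

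Col11a2, which encodes a chain of type XI collagen, had 3 members 2204, 2996 and 4405 bp from its end, and 0 of its 6 intergenic sites were open in all 4 libraries. They held 46, 41 and 40 tags in P0 A and 38, 36 and 35 in P0 B, on a background of 16.7 to 17.1 and 13.2 to 13.7 tags, so that their fold enrichments were only 2.32 to 2.59 and 2.53 to 2.66. All 3 were well above the medians of 13 and 11 tags. Their -log10 p was 8.68, 6.55 and 6.44 in P0 A and 7.76, 6.88 and 6.74 in P0 B. The medians of all members were 8.40 and 7.81. At Comp, the gene of cartilage oligomeric matrix protein, 1 member 6613 bp away held 50 tags in P0 A and 46 in P0 B, among the 10 members with the most tags relative to the lowest background of the library, with fold enrichments of 5.21 and 5.87. Col11a1, for the other main type XI chain, had 7 members among 31 intergenic sites. A pair of them, 1387 and 2186 bp from the gene, held 32 and 31 tags in A and 30 and 32 in B at a background of 11.5 and 8.63 to 8.82 tags, and the other 5 lay 29623 to 154998 bp away with 10 to 21 tags in A and 10 to 25 in B.

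Hapln1, whose product links aggrecan to hyaluronan, had 6 members among 12 intergenic sites. Those at 1580, 2598 and 3310 bp held 22, 24 and 20 tags in P0 A and 21, 22 and 16 in P0 B on a raised background, and those at 72209, 76228 and 85583 bp held 9, 25 and 19 tags in A and 14, 18 and 16 in B on a background of 1.42 to 1.57 and 1.18 to 1.20 tags. The site at 76228 bp, with fold enrichments of 10.8 and 8.62, was strong. Matn1 had 5 members among 17 sites, the nearest at 1430 bp with 45 and 37 tags and the next at 2003 bp with 35 and 28 tags. Col2a1, the gene of type II collagen, had 2 members among 6 sites. One 4175 bp away held 38 tags in P0 A and 32 in P0 B, and the other, 15511 bp away, 16 and 20 tags. Acan, the gene of aggrecan, had 2 members among 13 sites, with 17 and 19 tags in A and 16 and 10 in B, and Col9a1 2 among 7, with 22 and 28 tags in A and 18 and 23 in B. These genes lie on the same list but differ in where the members are: at Col11a2 and Comp close by on a high background, at Acan 16248 and 19380 bp away on a low one.

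Sox9, the gene of the main transcription factor of chondrocytes, was nearest to 14 members among 50 intergenic sites, beside 15 open in all 4 libraries and 0 P8 only. Of the 14, 9 lay at lower and 5 at higher coordinates than the gene, 14.8 to 223 kb away. Tags ran from 8 to 26 in P0 A and from 6 to 17 in P0 B. The highest, at chr11:112636971-112637249 and 144961 bp from the gene, held 26 and 17 tags, with fold enrichments of 11.2 and 8.24, and was the only strong one. Among the 8 strong intergenic sites of both P0 libraries about Sox9 it was the 1 without a P8 peak. The members were thus spread over the whole neighbourhood among sites that kept a peak at P8, and most were near the medians of all members.

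**Figure D5:**
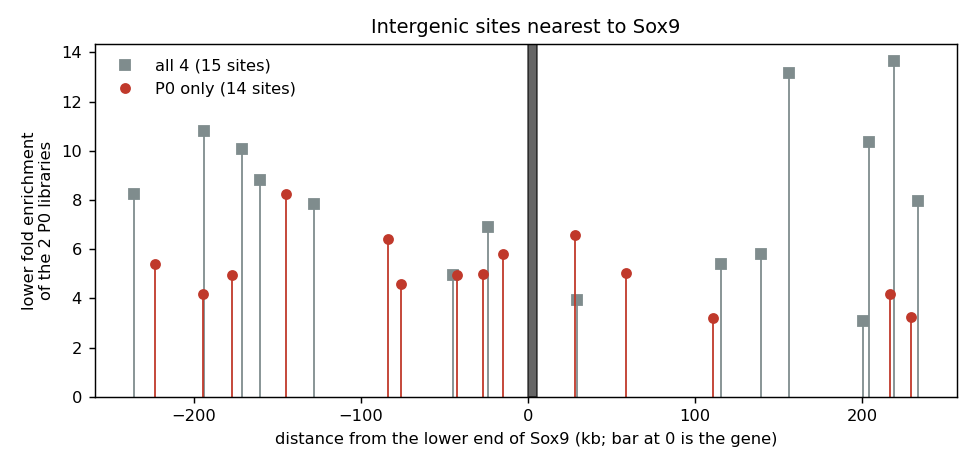
Lower fold enrichment of the 2 P0 libraries (y axis, from 0) of the intergenic sites nearest to Sox9 that were P0 only (red, 14 sites) or open in all 4 libraries (grey, 15 sites), by distance from the lower end of the gene in kb (x axis); other classes of site are not drawn. P0 only sites lie on both sides of the gene, 1 of them above a fold enrichment of 8, between sites that kept their peaks.

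The partners of Sox9 had fewer. Sox5 was nearest to 4 members among 23 intergenic sites, with 10 to 15 tags in P0 A and 9 to 11 in P0 B, the highest by fold enrichment holding 11 and 11 tags at 137021 bp. Sox6 was nearest to 6 among 25, with 10 to 16 tags in A and 8 to 16 in B, all at lower coordinates, the highest with 14 and 15 tags at 169900 bp. None of these 10 sites was strong. Of the other chondrogenic transcription factors, Foxa2, which acts in hypertrophic maturation, had 9 members among 45 sites, with 9 to 22 tags in A and 7 to 16 in B, and Zeb2, a zinc finger repressor, 6 among 22, with 9 to 18 and 7 to 18 tags.

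Among the growth plate signalling genes, the ligand genes had the most members. Bmp2 was nearest to 10 among 41 intergenic sites, with 8 to 34 tags in P0 A and 8 to 25 in P0 B, and 2 were strong. The stronger lay at chr2:133635517-133635932, 72621 bp away, and held 34 and 22 tags, with fold enrichments of 14.5 and 10.5. Bmp7, another bone morphogenetic protein gene, had 9 among 24, with 9 to 36 tags in A and 9 to 29 in B, and its strong site at chr2:172790172-172790629 held 36 and 29 tags. Gli2, a transcription factor gene of the hedgehog pathway, had 7 among 30, with 9 to 17 tags in A and 9 to 14 in B, none strong. Fgf18, the gene of a growth factor that acts on chondrocytes through FGFR3 and outside the rule for naming genes, is added after its values were seen: it was nearest to 5 members among 16 sites, with 8 to 37 tags in A and 8 to 31 in B, and 3 of the 5 were strong.

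Vegfa was nearest to 8 members among 26 intergenic sites, with 11 to 23 tags in P0 A and 10 to 17 in P0 B, beside 3 sites open in all 4 libraries and 2 P8 only. Phex, a gene of mineralization, had 2 members among 5 sites, and Runx2, the transcription factor gene of hypertrophy and bone, 2 among 8. In the fibroblast and contractile list, Fn1, the fibronectin gene, had 8 among 34, with 9 to 33 tags in A and 8 to 28 in B and 1 strong, Col5a1 5 among 19 and Col6a3 3 among 20, both collagen genes. Col1a1 and Col3a1, the genes of the fibrillar collagens typical of fibroblasts, and Thy1, a fibroblast surface marker, had 0 members among 9, 6 and 5 intergenic sites. All 5 sites of Thy1 and 5 of the 9 of Col1a1 were open in all 4 libraries.

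In the remaining lists, Cxcl12, a chemokine gene, had 7 members among 40 sites, Nfkbia, the NF-kappaB inhibitor gene, 4 among 12, and Il1b, the gene of a cytokine, 2 among 4. Maf, a bZIP transcription factor gene, had 7 among 38, with 8 to 13 tags in P0 A and 7 to 12 in P0 B, and Atf3, a stress response factor gene, 3 among 14. Of the limb genes, the homeobox genes Msx2 and Shox2 had 6 among 32 and 4 among 15, and the T-box gene Tbx15 4 among 22. At Msx2, 2 of the 6 were strong.

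Members also lay near marker genes of other cell types. The shares were 41.4% for blood and macrophage genes (12 of 29 sites) and 35.7% for neural genes (15 of 42). They were 23.1% for skeletal muscle genes (9 of 39) and 13.6% for endothelial genes (11 of 81). Among sites with a pileup of at least 16 times the lowest background, 1 of 5 blood and macrophage sites had no P8 peak. For neural, skeletal muscle and endothelial genes it was 0 of 1, 0 of 1 and 0 of 12. The blood list rested on Ptprc, the gene of the leukocyte antigen CD45, with 10 of the 12 members among its 23 intergenic sites. All 10 lay at lower coordinates, 18.1 to 233 kb away, with 8 to 34 tags in P0 A and 8 to 25 in P0 B. The other 2 were at Gata1, 1 among 1 site, and Csf1r, 1 among 2. In none of the 4 libraries was there a peak within 1 kb of an end of Ptprc or Csf1r, and the third macrophage marker, Spi1, had a peak there in all 4. Neither endothelial marker, Pecam1 nor Cdh5, had a peak at an end in any library, though Cdh5 had 4 members among 31 sites, Kdr 2 among 14 and Pecam1 1 among 3. Of the muscle markers, Myod1 had a peak at an end in all 4 libraries, Myog in P0 A only and Myf5 in none. Pax3 had 3 members among 15 intergenic sites, Des 2 among 7, and Myf5 and Myog 1 among 1 each. Olig2 and Sox10 had 2 among 3 each, and Map2 2 among 4. The part of other cells in these members was not tested.

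The genes with the most members included several transcription factor genes. Rybp, which encodes a Polycomb component, led with 17 among 49 intergenic sites, 10 at lower and 7 at higher coordinates, with 6 to 27 tags in P0 A and 7 to 21 in P0 B. Its highest, the member at Gm33448 whose window is printed above, had fold enrichments of 8.28 and 10.1. Myc, the proto-oncogene, had 16 among 56, with 10 to 37 tags in A and 7 to 23 in B, and Slc39a11, a zinc transporter gene, had 14 among 49. Bcl11a had 12 among 27, Smoc2 12 among 28, Pou3f3 12 among 32, Pdzrn3 12 among 37, Sox2 12 among 39 and Pja1 12 among 49. Bcl11a, Pou3f3 and Sox2 encode transcription factors, and Smoc2 a secreted matricellular protein. At Bcl11a and Pou3f3 only 3 intergenic sites each were open in all 4 libraries. At Smoc2 the members held 10 to 32 tags in A and 9 to 36 in B, and 2 were strong.

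The 10 highest members by the lower P0 fold enrichment were at 10 different genes, none of them on the 12 gene lists. The highest, at chr13:116118688-116119190 and 179080 bp from Isl1, a homeobox transcription factor gene, held 47 tags in P0 A and 49 in P0 B, with fold enrichments of 17.4 and 20.4. It was 1 of the 2 sites from 15 up without a P8 peak. The other, at chr5:99067410-99067988 and 30035 bp from Prkg2, held 38 and 38 tags, with 15.4 and 15.3. Prkg2 encodes the cGMP-dependent protein kinase II, needed for growth plate chondrocytes to become hypertrophic, and is in the immediate down class of the study's single-cell data. The following 8 were nearest to Celf2, Zfp92, Elavl2, Gm4832, Bcl2a1b, Tmco5, Lancl1 and Slc2a12, with 33 to 43 tags in A, 28 to 38 in B and lower fold enrichments of 13.3 to 14.7. Their distances ran from 3282 bp at Lancl1 to 223448 bp at Celf2. By the pileup over the lowest background of the library the order changed: the first was a site 5177 bp from Frmd8 with 58 and 55 tags but fold enrichments of only 2.04 and 2.47.

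The study's single-cell RNA-seq sorted genes into classes by their course along a pseudotime axis, in other cells than those of these libraries. Genes of the immediate down class were nearest to 272 members among 1254 intergenic sites, 21.7%, those of the gradual down class to 77 among 425, 18.1%, and those of the delay up, tide wave and gradual up classes to 231 among 1492 (15.5%), 25 among 174 (14.4%) and 118 among 1014 (11.6%). Among strong sites of both P0 libraries, 22 of 183 at immediate down genes, 12.02% (95% Wilson interval 8.07 to 17.5), had no P8 peak, 8 of 210 at delay up genes, 3.81%, and 11 of 143 at gradual up genes, 7.69%, beside 5.91% over all genes. Among sites with a pileup of at least 16 times the lowest background, the shares were 13.5% for immediate down, 5.93% for delay up and 7% for gradual up, beside 6.44%. Under 5 in the lower fold enrichment, they were 58.5% (52.7 to 64.1), 48.8% and 35.4% in the same order, beside 54.6%. From 5 to 8 they were 31.8% (26.5 to 37.6), 24.6% and 20.95%, beside 28.1%. The interval of immediate down genes thus held the share over all genes in these bins but not among strong sites. The gradual up share lay below that over all genes in these bins and above it among strong sites. A high local background was found at 10.3% of the members at immediate down genes, beside 3.38% of all members.

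At the limits of the rule, the members nearest to a gene were 1004 bp from Tbx4 (21 tags in P0 A, 8 in P0 B), 1008 bp from Rpl19 (18 and 16) and 1009 bp from Fgfbp1 (19 and 12), and P0 only sites just excluded were 998 bp from 4930579F01Rik (8 and 8), Pard6g (26 and 18) and Sh2b1 (8 and 11). The farthest member was 249998 bp from Ccdc54 (14 and 12 tags), and the nearest site past the limit 250195 bp from Pid1 (8 and 10). The member with the lowest -log10 p in P0 A, 1374 bp from Trappc3l, had 7 and 9 tags and fold enrichments of 2.78 and 3.98.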

How the data were processed

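Chondrocytes of 2 passages were profiled by ATAC-seq with 2 libraries each and 50 bp paired-end reads. The authors aligned the reads with Bowtie2 to mm10 (GRCm38) and called peaks per library with MACS2 at default settings; versions are not given in the sources used here. The deposited peak lists give, for each peak, the pileup at the summit (a signal, in tags), a fold enrichment over the local background (a ratio) and the p-value and q-value as −log10. The local background was recovered from pileup and fold enrichment (1 added to each); the deposited −log10 p values were recomputed from it to within 0.00019, with tags extended over 73 bp. Depth could be read only as the lowest background per library. A deposited table of the authors' own comparison (fold changes, p-values and mean signals of their groups) was not used. Each list gives its passage, and peak names carry a library prefix that was not matched to sample titles, so libraries were called A and B.

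Peaks of the 4 libraries were merged (1 bp), placed against 21631 protein-coding RefSeq genes of GRCm38, and each site took its strongest peak per library. No test was run, since the passage contrast chose the members; shares carry 95% Wilson intervals, which cover counting error only. For matched depth, pileup and background were scaled to the lowest of the 4 backgrounds and the Poisson tail recomputed. Merging and placement were tested on simulated sites, and the scaling was not. Gene lists (12 lists, 219 names, all matched) and the study's 5 single-cell classes (981 of 1000 names matched) gave counts by nearest gene. Members and lists were chosen with earlier results of these data known. Named genes were the 3 of each list with the most members, the 10 genome-wide, and the marker genes (1 gene is not reported here); named sites were the 10 highest by the lower P0 fold enrichment, the highest at Sox9, Sox5, Sox6, Col2a1, Acan and Rybp, the 3 longest runs and those at the limits. A genome was not used here, so the motif search planned for all sites was run only on the RefSeq promoter windows. Computation used scipy 1.17.1, pandas 2.3.3 and numpy 2.4.6 under Python 3.11.15, and figures matplotlib 3.10.9.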

Additional observations from a re-analysis of the deposited data

How the results depend on the processing

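Of 65 values under other settings, 32 stayed within the limits set for a change and 33 moved past them: a factor of 1.5 for counts of sites and the ratio, and the 95% interval of the reported value, which is narrow, for shares and the median distance. With only peaks above the median score of their library, the sites numbered 2144 (3.51% of intergenic sites, 21.2 for each P8 only site), lay a median of 34442.5 bp from a gene, had another within 20 kb in 11.6% of cases, and numbered 16 at cartilage matrix genes and 14 at chondrogenic transcription factors. At matched depth, 43.5% had another within 20 kb. Merging peaks up to 200 bp apart gave a share of 18.5%, with 40.4% near another. With genes of every biotype, the median distance was 13807.5 bp, 37.6% had another within 20 kb, and 22 and 15 sites were at the cartilage matrix and transcription factor genes. More than 3 kb from genes, the median distance was 35724 bp. Counting any gene end within 100 kb gave 78 cartilage matrix sites and 62 at chondrogenic transcription factors. Shares by list were not computed for this setting or for genes of every biotype. The counts of these settings thus have no share over all genes beside them.

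Leaving out 1 library at a time loosens the rule, since a single library then stands for its passage: the sites numbered 12170 to 22111 (most without P0 library B), 21.2% to 37.7% of intergenic sites and 2.56 to 14.0 for each P8 only site. Their median distance was 28686 to 30910 bp, and 48.3% to 66.9% had another within 20 kb. At cartilage matrix genes lay 44 to 76, or 28.8% to 51.4% of the intergenic sites of that list. Chondrogenic transcription factors had 81 to 143, or 23.2% to 40.9%. The share of the cartilage matrix list stayed above that over all genes, and that of the fibroblast and contractile list below it, under each of the 8 settings for which shares by list were computed. No paired analysis was possible because the peak names carry no replicate numbers and no test was run. At this depth, the lack of a P8 peak does not show that a site at the median level of the members was closed. Whether the call at P8 missed such sites was not tested.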
